A study of Mus musculus with 6 samples.

Results

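The chromatin around 5 cytoskeletal genes, Actb, Actg1, Srf, Acta2 and Myh9, was examined by ATAC-seq in mouse bone marrow-derived macrophages (BMDMs). In ATAC-seq a transposase cuts open DNA, so the number of reads at a site measures its accessibility. Sites were taken from 5 windows set around these genes on the mm9 build: chromosome 5, 143600000 to 143730000 (Actb), chromosome 11, 120150000 to 120260000 (Actg1), chromosome 17, 46630000 to 46740000 (Srf), chromosome 19, 34250000 to 34380000 (Acta2) and chromosome 15, 77540000 to 77720000 (Myh9). The windows held 176 of the 578591 sites of the series, of which 33 lay in the Actb window, 35 in the Actg1 window, 23 in the Srf window, 32 in the Acta2 window and 53 in the Myh9 window. At Srf, 1 further site crossed the edge of the window and was left out. Sites were taken by position alone.

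The cells were wild-type C57BL/6J BMDMs grown in L929-conditioned medium, and 1 library was made per group. The groups were LatA + IL-4 with its vehicle controls DMSO + IL-4 and DMSO, and MCSF + IL-4 with IL-4 and Untreated. Groups named with IL-4 received it for 24 hours at 20 ng/ml. The dose was 1 μM for latrunculin A (LatA) and 100 ng/ml for MCSF. How long MCSF and latrunculin A were given is not stated in the labels. DMSO is the solvent of latrunculin A, so LatA + IL-4 was compared with DMSO + IL-4, and MCSF + IL-4 with IL-4. With 1 library per group no test was made, and each ratio below compares 2 libraries with a 95% exact interval that covers counting error only.

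Actin exists in cells as monomers and as filaments. Monomers bind and hold back the myocardin-related transcription factors, and when monomers are used up in filaments these cofactors enter the nucleus and act with serum response factor (SRF). SRF binds a DNA element called the CArG box and drives many genes of the cytoskeleton, its own gene and several actin genes among them. Latrunculin A binds monomers and stops filaments from growing. MCSF, also called CSF1, is the growth factor on which macrophages depend and makes them spread. Actb and Actg1 encode the cytoplasmic β- and γ-actins found in nearly all cells, Acta2 encodes the α-actin of smooth muscle and of activated fibroblasts, and Myh9 encodes the heavy chain of nonmuscle myosin IIA, the motor that pulls on actin filaments.

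The bases just upstream of the gene starts are shown for the genes with a CArG box, or a sequence close to it, since that is the element through which SRF acts. The sequences are the 250 bases before the RefSeq start on the minus strand of GRCm38.p6, at chr11:120348496-120348745 for Actg1, chr17:46556163-46556412 for Srf and chr19:34255374-34255623 for Acta2. These positions belong to another build than the sites and cannot be set beside them. Capitals mark CArG boxes at Actg1 and Srf, and at Acta2 they mark boxes in which 1 of the 6 core bases is G or C in place of A or T.
Actg1: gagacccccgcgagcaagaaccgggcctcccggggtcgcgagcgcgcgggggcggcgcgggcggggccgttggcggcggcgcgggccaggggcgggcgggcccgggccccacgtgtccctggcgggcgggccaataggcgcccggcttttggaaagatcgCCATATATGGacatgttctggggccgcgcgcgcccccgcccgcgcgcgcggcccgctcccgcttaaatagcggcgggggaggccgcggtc
Srf: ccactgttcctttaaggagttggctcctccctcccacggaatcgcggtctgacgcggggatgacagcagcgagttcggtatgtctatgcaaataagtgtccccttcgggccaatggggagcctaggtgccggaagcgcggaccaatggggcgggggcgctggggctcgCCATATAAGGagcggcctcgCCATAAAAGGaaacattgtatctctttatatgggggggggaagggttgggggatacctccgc
Acta2: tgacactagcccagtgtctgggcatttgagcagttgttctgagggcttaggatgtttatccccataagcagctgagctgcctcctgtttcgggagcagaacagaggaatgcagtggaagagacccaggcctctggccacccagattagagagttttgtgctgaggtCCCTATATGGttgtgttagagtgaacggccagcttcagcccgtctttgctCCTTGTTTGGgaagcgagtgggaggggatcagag

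Actg1 held 1 CArG box, CCATATATGG, from 90 to 81 bases before the start. Srf held 2 boxes, CCATATAAGG from 82 to 73 and CCATAAAAGG from 62 to 53 bases before its own start. Acta2 held no full box but 2 with 1 core base changed, CCCTATATGG from 84 to 75 and CCTTGTTTGG from 34 to 25 bases before the start. Myh9 held neither form in these letters. Both strands were searched. Among 32851 upstream sequences of the same length, 1.47% held a full box and 7.25% held a box with 1 core base changed. A list of 36 genes was drawn up for the SRF and actin pathway, and 33 of them had an entry. A box with 1 core base changed was found at 7 of these 33 genes, against 8.33% of all 27025 genes, and a full box at 10, against 1.62% (Acta1, Actc1, Actg1, Cnn2, Fhl2, Lima1, Myl6, Myl9, Srf and Vcl). Actb, Tagln and Egr1 had no entry. The genes were picked for this pathway, so a raised share of boxes among them is no independent result. The list was used for these sequences only, since the sites carry no gene names.

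No gene annotation of mm9 was used, so a site is placed in a window and not in a promoter, exon or intron. The windows also take in neighbouring genes. In RefSeq (GRCm38.p6) the nearest genes are Fbxl18 and Fscn1 beside Actb, Bahcc1 and Fscn2 beside Actg1, Cul9 and Ptk7 beside Srf, Stambpl1 and Fas beside Acta2, and Apol8 and Txn2 beside Myh9. Actb and Actg1 also have many near-identical processed copies elsewhere in the genome, and the aligner could report up to 10 places for a read, so reads from the bodies of these genes are uncertain.

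Reads in sites numbered from 12387332 to 19889902 per library, and reads in the 5 windows from 2871 to 5004. The 20 sites of the series with the most reads took 19.5% to 22.2% of all reads in the 4 libraries without latrunculin A or MCSF, 13.5% with latrunculin A and 15.2% with MCSF. The part of this difference in the ratios below was not tested beyond the other scalings given with them. In bulk chromatin, more cells with an open site and a site more open in each cell cannot be told apart.

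All 5 windows were more accessible with latrunculin A and with MCSF than in the matched IL-4 libraries. Values are reads summed over all sites of a window, scaled to a common library size (normalized reads). The Srf window held 369 normalized reads in Untreated, 487 in DMSO, 399 in IL-4, 431 in DMSO + IL-4, 699 in MCSF + IL-4 and 692 in LatA + IL-4. The MCSF + IL-4 and LatA + IL-4 intervals, 644 to 758 and 640 to 747, lay above those of the other 4 libraries, the highest of which was 447 to 530 in DMSO. The ratio was 1.61 (1.41 to 1.83) with latrunculin A and 1.75 (1.54 to 2.00) with MCSF.

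Of the cytoplasmic actins, Actb gave the higher ratios, with intervals that overlapped those of Actg1. The Actb window held 740 normalized reads in Untreated, 970 in DMSO, 718 in IL-4, 838 in DMSO + IL-4, 1274 in MCSF + IL-4 and 1241 in LatA + IL-4. Its ratio was 1.48 (1.35 to 1.63) with latrunculin A and 1.78 (1.62 to 1.95) with MCSF. At Actg1 the sums were 684 in Untreated, 859 in DMSO, 612 in IL-4, 744 in DMSO + IL-4, 889 in MCSF + IL-4 and 916 in LatA + IL-4. This window had the lowest ratios of the 5, 1.23 (1.11 to 1.37) with latrunculin A and 1.45 (1.30 to 1.62) with MCSF, and the intervals of both libraries overlapped that of DMSO (805 to 915).

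The muscle actin and the myosin window were higher in the same pair of libraries. The Acta2 sums were 513 in Untreated, 697 in DMSO, 607 in IL-4, 672 in DMSO + IL-4, 941 in MCSF + IL-4 and 1086 in LatA + IL-4. Its ratio was 1.62 (1.46 to 1.80) with latrunculin A and 1.55 (1.39 to 1.72) with MCSF. The Myh9 sums were 843 in Untreated, 1072 in DMSO, 819 in IL-4, 869 in DMSO + IL-4, 1348 in MCSF + IL-4 and 1341 in LatA + IL-4. The Myh9 ratio was 1.54 (1.41 to 1.70) with latrunculin A and 1.65 (1.51 to 1.80) with MCSF. The intervals of Srf, Acta2 and Myh9 overlapped one another in both comparisons.

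**Figure D1:**
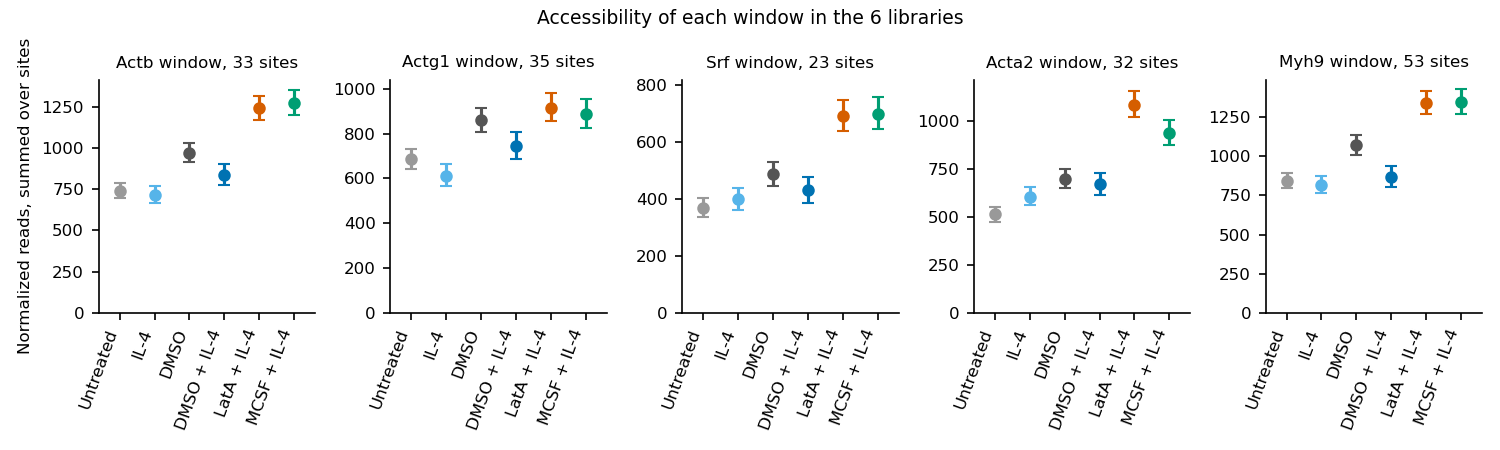
Normalized reads summed over all sites of each window (y axis, from 0) in the 6 libraries (x axis), with bars for the 95% exact interval of the count. MCSF + IL-4 and LatA + IL-4 were the highest libraries in each panel, and only at Actg1 did their intervals overlap that of DMSO.

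Summed over all 575017 sites with a mean under 200 reads, a range that takes in every site of the windows, the log2 ratio was 0.17 with latrunculin A and 0.18 with MCSF. The windows lay above that in both comparisons, but the Actg1 interval with latrunculin A, 0.15 to 0.45, took it in. On the same log2 scale they ran from 0.30 at Actg1 to 0.69 at Acta2 with latrunculin A and from 0.54 at Actg1 to 0.83 at Actb with MCSF. Scaling the libraries by the reads outside the largest sites lowered these 10 values to between 0.10 and 0.62, all above 0. That scaling moved the median of all sites by -0.19 with latrunculin A and by -0.20 with MCSF.

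Libraries that differed only in vehicle differed in these windows too. DMSO held more reads than Untreated in each window, by 1.31 times at Actb (1.20 to 1.43), 1.26 at Actg1 (1.15 to 1.38), 1.32 at Srf (1.17 to 1.49), 1.36 at Acta2 (1.23 to 1.51) and 1.27 at Myh9 (1.17 to 1.38). In the presence of IL-4 the vehicle ratio was smaller, from 1.06 (0.959 to 1.17) at Myh9 to 1.21 (1.08 to 1.36) at Actg1. The Actg1 ratio with latrunculin A, 1.23, was thus no larger than a vehicle ratio. Set against the IL-4 library without vehicle in place of DMSO + IL-4, LatA + IL-4 gave 1.73 at Actb, 1.496 at Actg1, 1.74 at Srf, 1.79 at Acta2 and 1.64 at Myh9. Set against DMSO + IL-4 in place of IL-4, MCSF + IL-4 gave 1.52 at Actb, 1.195 at Actg1 (1.07 to 1.33), 1.62 at Srf, 1.40 at Acta2 and 1.55 at Myh9, so the Actg1 value was below the DMSO ratio of 1.26.

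IL-4 itself gave sums that were near level or lower, except at Acta2 without vehicle. Without vehicle the ratio to Untreated was 0.970 (0.880 to 1.07) at Actb, 0.895 (0.807 to 0.992) at Actg1, 1.08 (0.945 to 1.23) at Srf, 1.18 (1.06 to 1.32) at Acta2 and 0.971 (0.887 to 1.06) at Myh9. With vehicle it was below 1 in each window, at 0.864 (0.784 to 0.952), 0.866 (0.781 to 0.960), 0.884 (0.771 to 1.01), 0.964 (0.862 to 1.08) and 0.811 (0.738 to 0.891) in the same order. Acta2 was the window whose IL-4 interval lay above 1 without vehicle, and its interval with vehicle spanned 1. The comparisons with vehicle share the DMSO + IL-4 library with the latrunculin A comparison, so a low count there lowers one ratio and raises the other.

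Per kilobase of site, the Actb window was the densest in each library. It ran from 68.6 normalized reads per kb with IL-4 alone up to 122 with MCSF. Actg1 came next in Untreated (59.7), DMSO (74.99) and DMSO + IL-4 (64.9). In IL-4 the windows of Acta2 (54.3), Actg1 (53.5) and Srf (52.4) came next and had overlapping intervals. In LatA + IL-4 the order below Actb (119) was Acta2 (97.2), Srf (90.9), Actg1 (80.0) and Myh9 (76.6). In MCSF + IL-4 it was Srf (91.9), Acta2 (84.2), Actg1 (77.6) and Myh9 (77.0). Much of this order was within counting error. In both treated libraries the interval of Srf overlapped that of Acta2, and that of Actg1 overlapped that of Myh9. Srf and Actg1 also overlapped in LatA + IL-4, as did Acta2 with Actg1 and Myh9 in MCSF + IL-4. In DMSO + IL-4 the interval of Actg1 overlapped those of Acta2 and Srf.

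Reads within a window were unevenly spread. The strongest site held 31.5% of the reads at Srf, 17.1% at Myh9, 16.7% at Actb, 13.3% at Actg1 and 13.0% at Acta2, taking the mean over the libraries. Leaving the strongest site out gave ratios with latrunculin A of 1.51 at Actb, 1.19 at Actg1, 1.72 at Srf, 1.60 at Acta2 and 1.55 at Myh9, close to those with it. Sites were compared singly where their mean reached 20 normalized reads. There were 61 of these, 12 at Actb, 13 at Actg1, 9 at Srf, 12 at Acta2 and 15 at Myh9, while 115 sites fell under the minimum. The share that passed was 34.7%, against 22.8% of all sites. The minimum was set on the mean of all 6 libraries, so a site could pass it through the treated ones, and 3 of the 61 were under 20 in each of the other 4 libraries (1.55% of all sites tested). The mean of those 4 was under 20 at 10 of the 61 sites (9.63% of all sites tested).

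The 115 weaker sites, taken as a sum per window, had intervals that spanned 1 with latrunculin A at Actb, Actg1 and Srf. At Actb they gave 1.14 (0.915 to 1.41) with latrunculin A and 1.55 (1.25 to 1.93) with MCSF, and at Srf 1.35 (0.966 to 1.90) and 1.43 (1.06 to 1.92). At Actg1 they gave 0.848 (0.698 to 1.03) with latrunculin A and 0.957 (0.788 to 1.16) with MCSF, while the 13 stronger Actg1 sites gave 1.44 (1.27 to 1.64) and 1.77 (1.55 to 2.02). At Myh9 the weaker sites gave 1.46 (1.25 to 1.72) with latrunculin A and 1.38 (1.19 to 1.61) with MCSF, and at Acta2 1.501 (1.20 to 1.88) and 1.31 (1.05 to 1.63). The intervals of the weak Actg1 sites spanned 1 in both comparisons. Since treated libraries entered the mean that parted weak from strong, sites were also parted by the mean of Untreated and DMSO, a choice made after seeing the data. The 15 Actg1 sites at 20 or more then gave 1.37 (1.21 to 1.55) with latrunculin A and 1.62 (1.43 to 1.84) with MCSF, and the 20 sites below gave 0.914 (0.742 to 1.13) and 1.08 (0.877 to 1.33). The weak Srf sites then gave 1.55 (1.198 to 2.02) with latrunculin A, an interval that no longer spanned 1, and 1.497 (1.16 to 1.93) with MCSF. Those of Actb gave 1.21 (0.994 to 1.48) and 1.59 (1.29 to 1.95), those of Acta2 1.40 (1.16 to 1.69) and 1.38 (1.15 to 1.67), and those of Myh9 1.51 (1.31 to 1.74) and 1.69 (1.48 to 1.92).

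**Figure D2:**
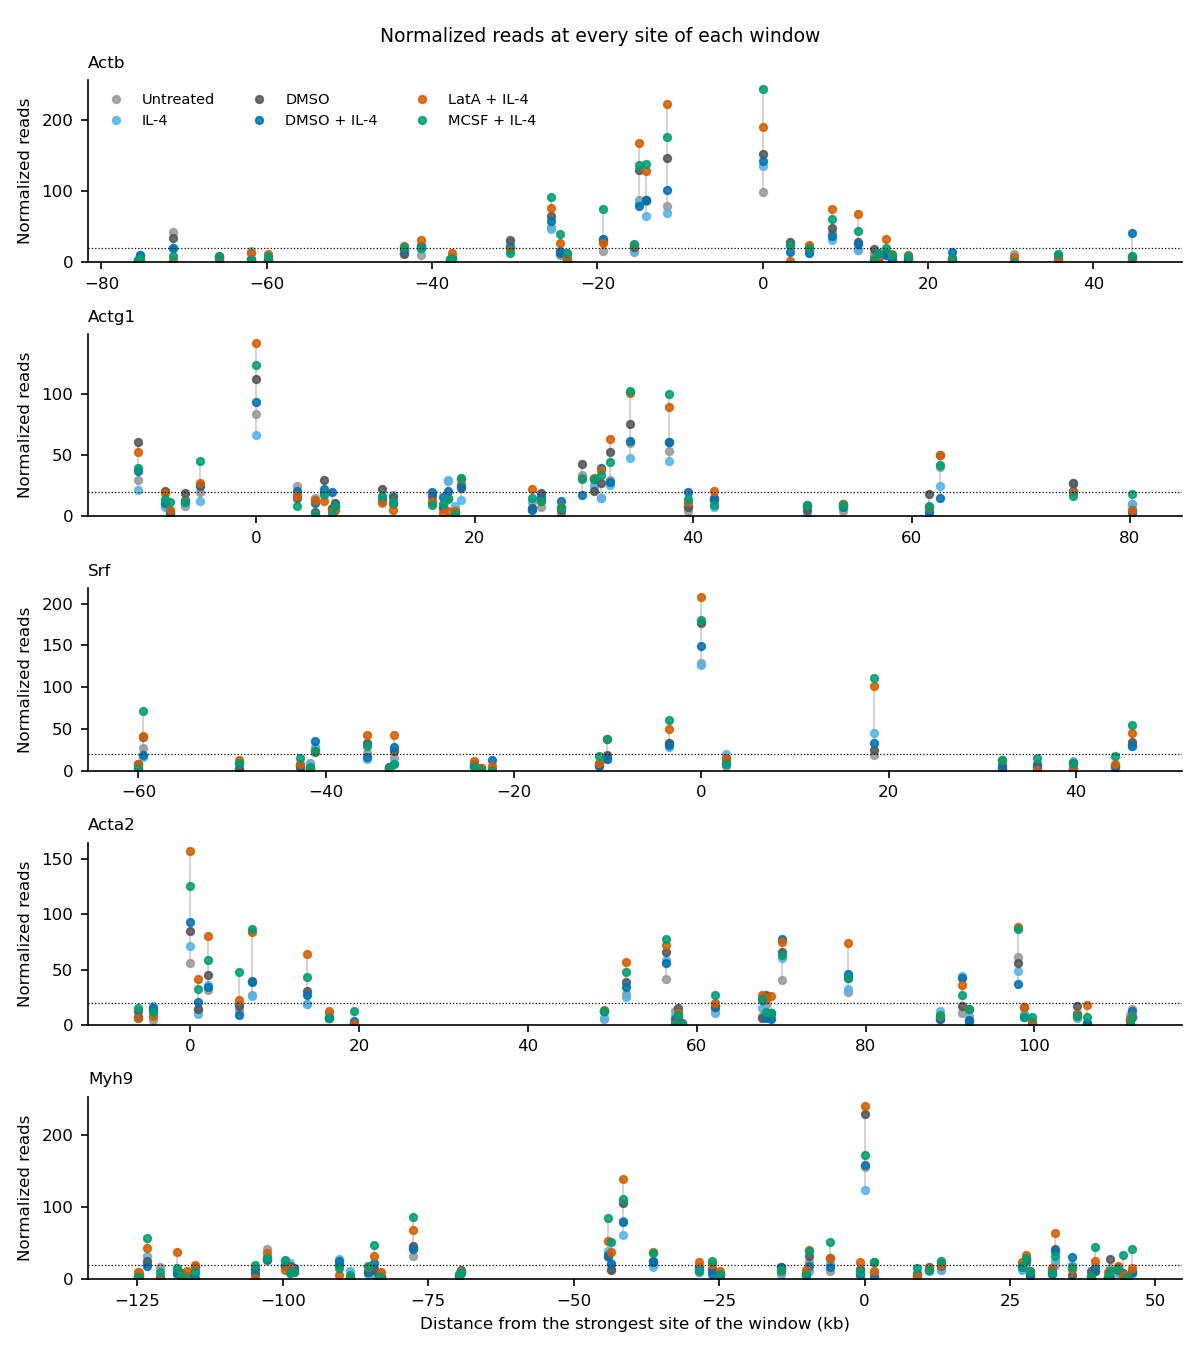
Normalized reads at each of the 176 sites (y axis) against distance in kb from the strongest site of its window (x axis), with 1 point per library and a grey line from the lowest to the highest library. The dotted line marks 20 normalized reads, and most sites lie near or under it while a few in each window exceed 100.

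A deposited peak was present in all 6 libraries at 34 of the 61 stronger sites, or 55.7%, against 49.0% of all sites past the same minimum. Such sites numbered 7 at Actb, 5 at Actg1, 7 at Srf, 8 at Acta2 and 7 at Myh9. Of the 176 sites, 17, or 9.66%, had no peak, near the 9.13% of all sites. A peak in 1 library was present at 55, for which the share of all sites was not taken. Peaks in LatA + IL-4 against DMSO + IL-4 numbered 15 against 18 at Actb, 16 against 14 at Actg1, 13 against 10 at Srf, 20 against 15 at Acta2 and 32 against 21 at Myh9. In MCSF + IL-4 against IL-4 they numbered 17 against 16, 15 against 15, 13 against 10, 17 against 16 and 26 against 20 in the same order. DMSO held 15, 17, 9, 20 and 29, so it reached or passed one or both treated libraries at Actb, Actg1, Acta2 and Myh9. These counts were not set beside the whole peak lists, and the libraries differed in depth, so no difference between libraries is read from them.

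Site by site, 34 of the 61 were more than 1.5-fold higher with latrunculin A and 3 were lower. Over all 132057 sites tested, 30.1% were higher and 15.7% lower. With MCSF 42 were higher and 4 lower, where all sites gave 29.2% and 14.9%. The median log2 ratio was 0.64 with latrunculin A and 0.88 with MCSF, and over all sites it was 0.20 and 0.16. With latrunculin A the higher sites were 4 of 12 at Actb, 5 of 13 at Actg1, 6 of 9 at Srf, 9 of 12 at Acta2 and 10 of 15 at Myh9. With MCSF they were 9, 9, 6, 8 and 10 in the same order. The lower sites with latrunculin A were 1 each at Actb, Actg1 and Srf. With MCSF they were 2 at Actb and 1 each at Actg1 and Acta2. With the minimum on Untreated and DMSO, which enter neither comparison, latrunculin A gave 31 higher and 6 lower of 55 sites and MCSF 34 and 6, where all sites gave 26.0% and 19.1%, and 23.7% and 18.6%. This minimum was chosen after seeing the data. These are counts of 1 library against another, and neighbouring sites of a window are not replicates.

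Across the genome, sites with more reads had higher ratios in both comparisons, so the counts were also set beside sites of like read number. Among sites with 20 to 50 mean reads, 23 of 43 were higher with latrunculin A and 28 with MCSF, where all sites of that range gave 24.9% and 23.1%. Between 50 and 100 reads they were 7 and 10 of 12, against 43.4% and 43.3%. At 100 reads or more they were 4 and 4 of 6, against 46.8% and 50.4%. The distance from all sites was widest among sites with 20 to 50 reads.

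Sites of like read number were also taken as the reference. With latrunculin A the median log2 ratio less that of like sites was 0.60 at Srf, 0.64 at Acta2, 0.54 at Myh9, 0.00 at Actb and 0.05 at Actg1. Above the median of like sites lay 7 of 9 sites at Srf, 9 of 12 at Acta2, 14 of 15 at Myh9, 6 of 12 at Actb and 9 of 13 at Actg1. The medians rest on 9 to 15 sites each, and the difference between windows was not tested. With MCSF each window lay above, at 0.47 for Actb, 0.63 for Actg1, 0.94 for Srf, 0.39 for Acta2 and 0.82 for Myh9. After this correction, 22 of the 61 sites were past 1.5-fold higher with latrunculin A and 3 lower, against 19.2% and 19.8% of all sites. With MCSF 32 were higher and 4 lower, against 19.6% and 18.4%.

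**Figure D3:**
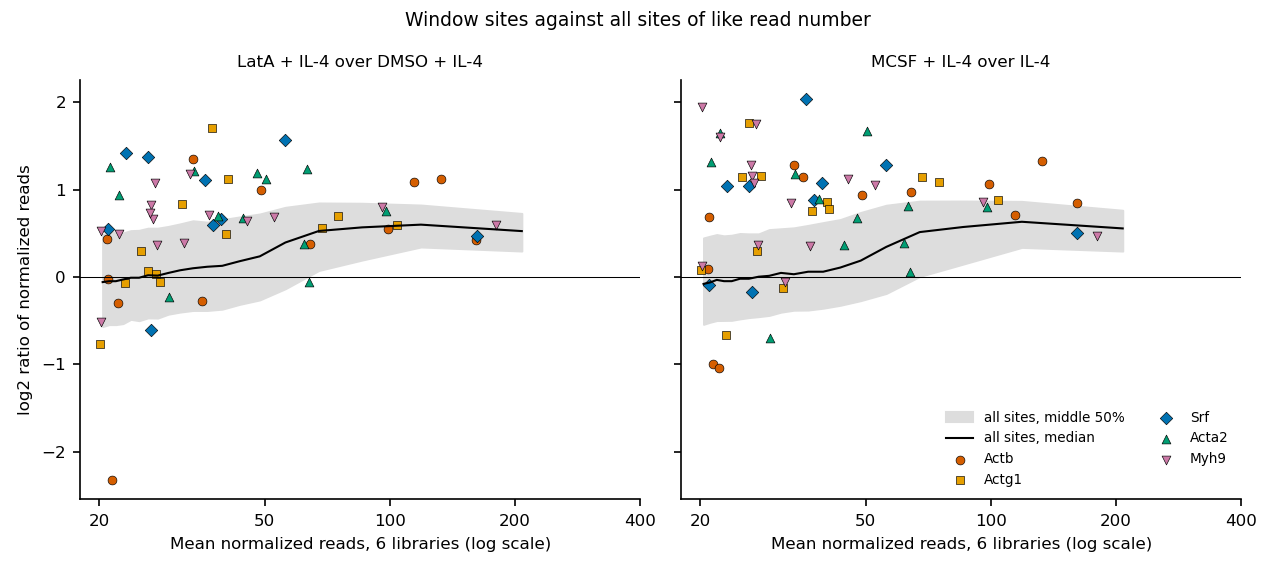
The log2 ratio of normalized reads (y axis) against mean normalized reads over the 6 libraries (x axis, log scale) for the 61 sites, by window, with the median (line) and middle 50% (grey) of all sites in bins of like read number. Most Actg1, Srf, Acta2 and Myh9 sites lie above the line with latrunculin A, while the Actb sites fall evenly on both sides of it.

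The latrunculin A and MCSF comparisons share no library, and many sites were higher in both. Of the 61 sites 30, or 49.2%, were past 1.5-fold higher in both, against 15.4% of all sites. They were 4 at Actb, 4 at Actg1, 6 at Srf, 8 at Acta2 and 8 at Myh9. No site was past 1.5-fold in opposite directions, against 3.40% of all sites, and 1 was lower in both, against 4.36% of all sites. MCSF + IL-4 and LatA + IL-4 both exceeded the other 4 libraries at 38 of the 61 sites, against 30.1% of all sites tested. The window of Acta2 gave 9 of its 12 and that of Myh9 11 of its 15. At Srf it was 6 of 9, at Actb 7 of 12 and at Actg1 5 of 13. The minimum takes in both treated libraries, and these counts were not taken with the minimum on Untreated and DMSO.

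**Figure D4:**
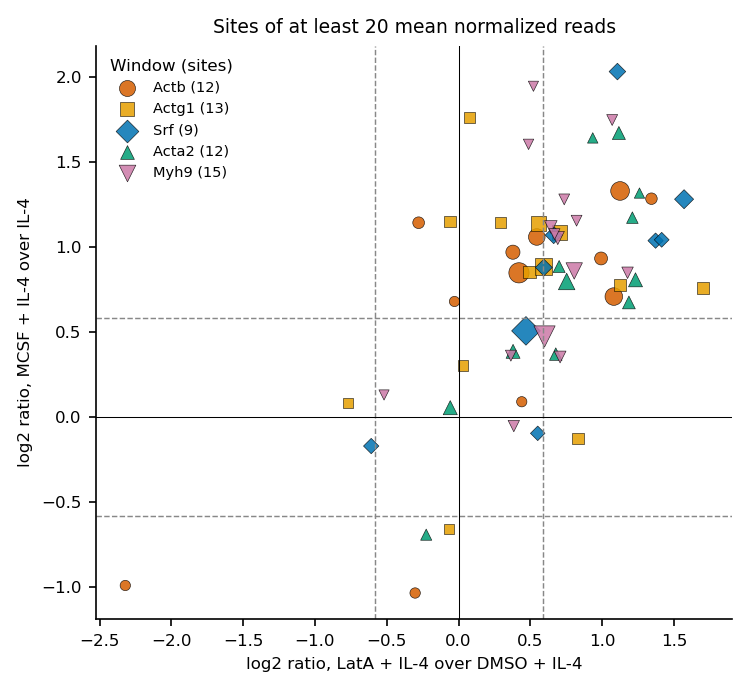
Each point is 1 of the 61 sites, with the log2 ratio of LatA + IL-4 over DMSO + IL-4 on the x axis and of MCSF + IL-4 over IL-4 on the y axis, larger symbols standing for more reads and dashed lines for 1.5-fold. The upper right corner holds 30 sites and the lower left holds 1, an Actb site.

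In the Srf window, the strongest site (chromosome 17, 46692886 to 46693664) ranked in the top 0.964% of all sites by mean reads. It held 129 normalized reads in Untreated, 177 in DMSO, 127 in IL-4, 150 in DMSO + IL-4, 180 in MCSF + IL-4 and 208 in LatA + IL-4. Its ratio was 1.39 (1.10 to 1.75) with latrunculin A and 1.42 (1.12 to 1.81) with MCSF, short of 1.5-fold in both, and close to the DMSO ratio of 1.37 (1.11 to 1.69). Sites of like read number had median log2 ratios of 0.52 with latrunculin A and 0.56 with MCSF. The largest latrunculin A ratio of the window lay 18.4 kb away.

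That site (chromosome 17, 46711368 to 46711966) was low in both controls without IL-4, at 19.2 in Untreated and 25.2 in DMSO. It held 45.2 in IL-4, 33.4 in DMSO + IL-4, 111 in MCSF + IL-4 and 101 in LatA + IL-4. The log2 ratio was 1.57 with latrunculin A (3.03-fold, 1.96 to 4.83) and 1.28 with MCSF (2.46-fold, 1.72 to 3.59). Sites of like read number had medians of 0.39 and 0.34 in the same comparisons. With IL-4 its ratio was 2.35 (1.42 to 3.96) without vehicle and 1.33 (0.752 to 2.33) with vehicle. The authors' fold enrichment of its peak, a ratio to local background within a library, was 25.8 with MCSF, 20.5 with latrunculin A and 5.69 to 11.9 in the others.

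Near the other end of the Srf window, the site at chromosome 17, 46633499 to 46634039 showed the largest MCSF ratio of the 61 sites. It held 27.4 normalized reads in Untreated, 40.5 in DMSO, 16.7 in IL-4, 18.6 in DMSO + IL-4, 71.5 in MCSF + IL-4 and 41.1 in LatA + IL-4. Both IL-4 libraries without a further treatment were the lowest. Its log2 ratio was 2.03 with MCSF (4.28-fold, 2.47 to 7.82) and 1.11 with latrunculin A (2.22-fold, 1.19 to 4.33). With IL-4 it was 1.64-fold lower without vehicle (0.901 to 3.11) and 2.18-fold lower with vehicle (1.19 to 4.22), and LatA + IL-4 was level with DMSO.

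IL-4 and DMSO + IL-4 were again the lowest libraries at chromosome 17, 46657431 to 46657844, where values were 21.5 in Untreated, 33.3 in DMSO, 13.7 in IL-4, 16.1 in DMSO + IL-4, 29.3 in MCSF + IL-4 and 43.2 in LatA + IL-4. Its log2 ratio was 1.37 with latrunculin A and 1.04 with MCSF. The site 10.1 kb from the strongest one (chromosome 17, 46682924 to 46683477) held from 13.3 to 18.9 in the 4 other libraries, 37.5 in MCSF + IL-4 and 38.0 in LatA + IL-4. It had log2 ratios of 1.41 with latrunculin A and 1.04 with MCSF, and it passed the minimum only through these treated libraries. At chromosome 17, 46651701 to 46652474 the order was the reverse for latrunculin A, with 35.9 in DMSO + IL-4 against 23.2 in LatA + IL-4, a ratio of 0.646 (0.354 to 1.16). No site of the Srf window was past 1.5-fold lower with MCSF.

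Of the Actb sites with the most reads, the second and the third lay about 12 to 15 kb from the strongest. The site at chromosome 5, 143670569 to 143671449 held 79.9 normalized reads in Untreated, 147 in DMSO, 69.7 in IL-4, 101 in DMSO + IL-4, 177 in MCSF + IL-4 and 223 in LatA + IL-4. The log2 ratio was 1.12 with latrunculin A (2.19-fold, 1.69 to 2.87) and 1.33 with MCSF (2.54-fold, 1.90 to 3.41), both above the medians of like sites, 0.60 and 0.63. DMSO alone gave 1.84-fold (1.43 to 2.36) over Untreated.

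Its neighbour at chromosome 5, 143667327 to 143667956 held 88.0 in Untreated, 131 in DMSO, 83.4 in IL-4, 79.2 in DMSO + IL-4, 137 in MCSF + IL-4 and 169 in LatA + IL-4. The ratio was 2.13 (1.58 to 2.89) with latrunculin A and 1.64 (1.23 to 2.20) with MCSF. Less the median of like sites, its log2 ratio was 0.48 with latrunculin A and 0.08 with MCSF. DMSO and MCSF + IL-4 were near each other here. At the strongest Actb site (chromosome 5, 143682211 to 143683027) the order of the libraries was another, from 99.1 in Untreated through 135 in IL-4, 142 in DMSO + IL-4, 152 in DMSO and 191 in LatA + IL-4 to 245 in MCSF + IL-4. There the ratio was 1.34 (1.06 to 1.71) with latrunculin A and 1.81 (1.45 to 2.26) with MCSF. Less the median of like sites, the log2 ratio was -0.10 with latrunculin A and 0.29 with MCSF.

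On the other side of the strongest Actb site, the site at chromosome 5, 143694029 to 143694321 held 17.8 in Untreated, 27.9 in DMSO, 17.7 in IL-4, 26.0 in DMSO + IL-4, 44.5 in MCSF + IL-4 and 67.5 in LatA + IL-4. It had the highest latrunculin A ratio of the window, 2.60-fold (1.56 to 4.48), with MCSF at 2.52-fold (1.40 to 4.69). The site at chromosome 5, 143690720 to 143691294 held from 31.4 to 48.6 in the other 4 libraries, 60.9 in MCSF + IL-4 and 74.9 in LatA + IL-4. Its ratios were 2.02 (1.30 to 3.20) with latrunculin A and 1.94 (1.23 to 3.11) with MCSF.

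A single Actb site was past 1.5-fold lower in both comparisons. At chromosome 5, 143611040 to 143611434, which lies 71.4 kb from the strongest site, normalized reads were 42.2 in Untreated, 34.2 in DMSO, 19.6 in IL-4, 19.8 in DMSO + IL-4, 9.37 in MCSF + IL-4 and 3.16 in LatA + IL-4. Both libraries without IL-4 were the highest, and only 3 reads were counted in LatA + IL-4. The level was 6.26-fold lower for latrunculin A (1.79 to 33.5) and 2.09-fold lower for MCSF (0.884 to 5.50). For IL-4 it was 2.15-fold lower without vehicle (1.27 to 3.78) and 1.73-fold lower with vehicle (0.941 to 3.32), and the site reached the minimum only through the libraries without IL-4. No peak was called there in either treated library. A second Actb site, at chromosome 5, 143651909 to 143652168, gave a ratio of 0.469 with MCSF (0.211 to 0.971) and of 0.802 with latrunculin A (0.379 to 1.69).

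At Actg1, the strongest site (chromosome 11, 120177083 to 120177881) held 84.3 normalized reads in Untreated, 113 in DMSO, 66.7 in IL-4, 94.1 in DMSO + IL-4, 124 in MCSF + IL-4 and 142 in LatA + IL-4. Its ratio was 1.51 (1.13 to 2.03) with latrunculin A and 1.86 (1.36 to 2.56) with MCSF. The log2 ratio with latrunculin A, 0.59, equalled that of like sites, 0.60, to within 0.01. With the trend over read number taken off it was -0.01.

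A group of Actg1 sites lay 32 to 38 kb from it. The site at chromosome 11, 120211424 to 120211948 held 59.9 in Untreated, 75.6 in DMSO, 48.1 in IL-4, 61.9 in DMSO + IL-4, 103 in MCSF + IL-4 and 101 in LatA + IL-4. Its ratios were 1.64 (1.15 to 2.35) with latrunculin A and 2.14 (1.49 to 3.10) with MCSF. The site at chromosome 11, 120215002 to 120215451 held from 45.2 to 61.2 in the other 4 libraries, 101 in MCSF + IL-4 and 89.6 in LatA + IL-4. There the ratio was 1.48 (1.03 to 2.15) with latrunculin A and 2.23 (1.54 to 3.26) with MCSF. At both, MCSF + IL-4 was the highest library. Less the median of like sites, the log2 ratios of this pair were 0.17 and 0.03 with latrunculin A and 0.57 and 0.63 with MCSF.

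The largest latrunculin A ratio of all 61 sites, at chromosome 11, 120239716 to 120240485, rested on a low control. Values were 40.7 in Untreated, 50.4 in DMSO, 24.5 in IL-4, 14.9 in DMSO + IL-4, 42.2 in MCSF + IL-4 and 50.6 in LatA + IL-4. LatA + IL-4 was level with DMSO, and the 12 reads of DMSO + IL-4 were the fewest. The log2 ratio was 1.70 with latrunculin A (3.41-fold, 1.78 to 7.05) and -1.70 for IL-4 with vehicle, and with IL-4 as the control for LatA + IL-4 it was 1.02. At chromosome 11, 120172125 to 120172572 the values were 45.7 in MCSF + IL-4 against 12.8 in IL-4 (3.58-fold, 1.87 to 7.31), and 27.4 in LatA + IL-4 against 26.0 in DMSO + IL-4 (1.05, 0.571 to 1.97). IL-4 was the lower of these controls, and with the controls exchanged the log2 ratio was 0.79 for MCSF + IL-4 and 1.05 for LatA + IL-4. The largest fall of the window with latrunculin A was at chromosome 11, 120183376 to 120183908. Its log2 ratio was -0.77, and 0.08 with MCSF. The largest fall with MCSF, -0.66, was at chromosome 11, 120251975 to 120252582, where latrunculin A gave -0.07.

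The Acta2 window held open sites in every library, and these cannot be assigned to Acta2 rather than to its neighbours Stambpl1 and Fas. The strongest site (chromosome 19, 34266540 to 34267411) held 56.2 normalized reads in Untreated, 84.6 in DMSO, 71.7 in IL-4, 92.8 in DMSO + IL-4, 125 in MCSF + IL-4 and 157 in LatA + IL-4. Its ratio was 1.69 (1.27 to 2.26) with latrunculin A and 1.75 (1.29 to 2.39) with MCSF. The site 7.28 kb from it (chromosome 19, 34274009 to 34274499) held 26.6 in Untreated, 39.6 in DMSO, 26.5 in IL-4, 38.4 in DMSO + IL-4, 86.7 in MCSF + IL-4 and 84.4 in LatA + IL-4. There the log2 ratio was 1.12 with latrunculin A (2.20-fold, 1.44 to 3.44) and 1.67 with MCSF (3.27-fold, 2.08 to 5.29), while IL-4 gave -0.01 without vehicle and -0.05 with it. The largest latrunculin A log2 ratio of the window, 1.26, was at chromosome 19, 34272531 to 34272848, which was also past 1.5-fold higher with MCSF.

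At the far end of the Acta2 window, the site at chromosome 19, 34364606 to 34365451 held 61.4 in Untreated, 55.8 in DMSO, 49.1 in IL-4, 37.1 in DMSO + IL-4, 86.7 in MCSF + IL-4 and 88.6 in LatA + IL-4. Its ratios were 2.39 (1.56 to 3.75) with latrunculin A and 1.77 (1.22 to 2.58) with MCSF. The second strongest site (chromosome 19, 34336810 to 34337372) had ratios near 1, at 0.960 (0.674 to 1.37) with latrunculin A and 1.04 (0.708 to 1.52) with MCSF. It held 40.7 in Untreated and from 60.9 to 78.0 in the other libraries.

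The largest IL-4 ratio of the 61 sites was also in the Acta2 window, at chromosome 19, 34358107 to 34358583. It held 10.4 normalized reads in Untreated, 17.1 in DMSO, 44.2 in IL-4, 42.1 in DMSO + IL-4, 26.9 in MCSF + IL-4 and 35.9 in LatA + IL-4. The 4 libraries with IL-4 were all above both without it. With IL-4 it was 4.26-fold higher without vehicle (2.30 to 8.41) and 2.46-fold higher with vehicle (1.36 to 4.56). It was not higher again with either treatment, at ratios of 0.852 (0.514 to 1.41) for latrunculin A and 0.610 (0.352 to 1.03) for MCSF. Both libraries without IL-4 were under 20 here, so the site reached the minimum only through those with it.

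In the Myh9 window lay the site with the most reads of the 176 (chromosome 15, 77672422 to 77673123), in the top 0.770% of all sites. It held 155 normalized reads in Untreated, 229 in DMSO, 124 in IL-4, 158 in DMSO + IL-4, 172 in MCSF + IL-4 and 240 in LatA + IL-4. LatA + IL-4 and DMSO were close, and MCSF + IL-4 lay below DMSO. The ratio was 1.52 (1.22 to 1.90) with latrunculin A and 1.39 (1.09 to 1.78) with MCSF, and with IL-4 it was 1.26-fold lower (1.00 to 1.58) without vehicle and 1.44-fold lower (1.16 to 1.80) with vehicle. Sites of like read number had median log2 ratios of 0.52 with latrunculin A and 0.56 with MCSF.

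The second strongest Myh9 site (chromosome 15, 77630953 to 77631432) held 79.9 in Untreated, 105 in DMSO, 60.9 in IL-4, 79.2 in DMSO + IL-4, 111 in MCSF + IL-4 and 139 in LatA + IL-4. Its ratios were 1.76 (1.29 to 2.41) with latrunculin A and 1.83 (1.31 to 2.56) with MCSF. The next (chromosome 15, 77594781 to 77595355) held from 31.8 to 45.9 in the other 4 libraries, 86.7 in MCSF + IL-4 and 68.5 in LatA + IL-4. It gave 1.63 (1.06 to 2.54) with latrunculin A and 2.10 (1.42 to 3.15) with MCSF. At both sites the treated libraries were the highest. The largest latrunculin A log2 ratio of the window, 1.18, was at chromosome 15, 77549089 to 77549745, which was also past 1.5-fold higher with MCSF.

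Some weaker Myh9 sites stood out with MCSF. The site at chromosome 15, 77712092 to 77712519 held from 10.8 to 17.3 in the other 4 libraries, 44.5 in MCSF + IL-4 and 25.3 in LatA + IL-4. It was 4.12-fold higher with MCSF (2.06 to 8.94) and 1.46-fold with latrunculin A (0.726 to 3.05), and it too passed the minimum only through the treated libraries. At chromosome 15, 77588209 to 77588596 values were 5.92 in Untreated, 12.6 in DMSO, 14.7 in IL-4, 22.3 in DMSO + IL-4, 46.9 in MCSF + IL-4 and 31.6 in LatA + IL-4. This site passed 1.5-fold with IL-4 in both comparisons, at 2.49 (0.990 to 6.77) without vehicle and 1.77 (0.830 to 3.84) with vehicle, with intervals that spanned 1, and was 3.18-fold higher with MCSF (1.72 to 6.20). The mean of the 4 libraries without latrunculin A or MCSF was under 20 here, and also at the site described next.

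A further Myh9 site, at chromosome 15, 77629078 to 77629389, also had both treated libraries highest, with 14.1 in Untreated, 12.6 in DMSO, 22.6 in IL-4, 21.0 in DMSO + IL-4, 51.5 in MCSF + IL-4 and 38.0 in LatA + IL-4. Its ratios were 1.80 (0.988 to 3.43) with latrunculin A and 2.28 (1.35 to 3.96) with MCSF. The site at chromosome 15, 77663043 to 77663475 was instead lower with IL-4 alone, at 23.7 in Untreated, 31.5 in DMSO, 10.8 in IL-4, 18.6 in DMSO + IL-4, 38.7 in MCSF + IL-4 and 40.1 in LatA + IL-4. There the ratio was 2.16 (1.16 to 4.22) with latrunculin A and 3.58 (1.77 to 7.85) with MCSF.

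With IL-4 and no vehicle, 7 of the 61 sites (11.5%) were past 1.5-fold higher and 8 (13.1%) lower, against 20.8% and 8.88% of all sites. With vehicle 4 (6.56%) were higher and 11 (18.03%) lower, against 16.6% and 12.8%. In both comparisons together, 3 sites were higher, 1 at Acta2 and 2 at Myh9, against 8.73% of all sites. Lower in both were 5 sites, 2 at Srf and 1 each at Actb, Actg1 and Myh9, against 2.38% of all sites. At Actg1 each of the 13 sites was below Untreated in IL-4, with a median log2 ratio of -0.23, and 9 of the 13 were below DMSO in DMSO + IL-4, with a median of -0.29. Over all sites these medians were 0.10 and 0.01. Sites below Untreated in IL-4 numbered 7 of 12 at Actb, 7 of 9 at Srf, 4 of 12 at Acta2 and 7 of 15 at Myh9, and below DMSO in DMSO + IL-4 they numbered 10, 6, 7 and 10.

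The vehicle gave 18 sites past 1.5-fold higher and 1 lower in DMSO against Untreated, where all sites gave 16.8% and 7.24%. With IL-4 present, DMSO + IL-4 against IL-4 gave 10 higher and 4 lower, against 11.2% and 9.80%. The median log2 ratio of the 61 sites was 0.44 and 0.24 in these 2 comparisons, and 0.18 and 0.06 over all sites. The 0.64 and 0.88 of latrunculin A and MCSF are thus to be read beside differences of 0.24 to 0.44 between libraries that differed in vehicle.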

How the data were processed

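Per the study's methods and the submitters' processing notes, paired-end ATAC-seq reads were trimmed with cutadapt, aligned to mm9 with Bowtie2 with up to 10 alignments reported per read, freed of duplicates with Picard, and counted per site with featureCounts. Peaks were called with MACS2 at a q-value under 0.05. How sites were joined across libraries, and tool versions, are not given in the sources used here. The signal in the deposited site table was made by the authors as CPM with TMM factors in edgeR. Whole reads were recovered for 100% of values, to within 1e-06 of a read. In the deposited peak lists, 1 per library, the fold enrichment is a ratio to local background and served as a description.

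Normalized reads are whole reads put on the geometric mean of the effective library sizes that the table implies. Sites wholly inside the 5 windows were members. A site was compared where its mean was at least 20 normalized reads, which stands for 16.2 to 27.0 reads per library, and called past 1.5-fold with 1 read added to the log2 ratio. Ratios and intervals use no added read. Intervals of 95% are exact, Poisson for the reads of a library and conditional on the summed count for a ratio. They cover counting error only, since each group has 1 library. Reads carry no molecular identifiers. Like sites were 20 bins of mean reads. The scripts were tested on simulated data. The members, the lists and the rules were chosen with earlier results of these data known. The sites named per window are the 3 with the most reads. Added are the largest change each way past 1.5-fold with latrunculin A and with MCSF. Also added are up to 3 past 1.5-fold the same way in both of these or in both IL-4 comparisons. This was met by 37 sites, not all of which are described. Alternatives were 3 other scalings, the minimum, the fold, the reads added, the trend over mean reads, the other control the strongest site left out and, chosen after seeing the data, the minimum set on Untreated and DMSO. Python 3.11.15, numpy 2.4.6, pandas 2.3.3 and scipy 1.17.1 were used.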

Additional observations from a re-analysis of the deposited data

Results flagged for a closer look

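At 1 Myh9 site (chromosome 15, 77666616 to 77666887) the pair of IL-4 comparisons went opposite ways, 1 of 61 sites against 2.50% of all sites. Without vehicle its normalized reads went from 11.1 to 20.6 with IL-4, a log2 ratio of 0.84, but with vehicle they were 28.8 in DMSO and 17.3 in DMSO + IL-4, a log2 ratio of -0.70. The values differ by 1.54 on the log2 scale. The difference was not tested, since each group has 1 library, and it rests on 14 to 32 reads per library.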

How the results depend on the processing

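No paired analysis was possible because each group has 1 library, so that no replicate numbers pair the groups. A fit of IL-4 over both vehicle states, which would leave 1 residual degree of freedom, was not run. With 1 library per group no replicate could be left out. The summed ratios of the 5 windows stayed above 0 on the log2 scale for latrunculin A and MCSF under the other scalings, with the other IL-4 library as control, with the strongest site left out and with the stronger sites alone, between 0.10 and 0.93. Counts of sites called were less stable, and 30 of 72 moved by over 1.5 times. Among these were all the counts with no minimum, at a minimum of 50 reads and at 2-fold. With latrunculin A, 34 higher of 61 sites became 21 of 62 when scaled by reads outside the largest sites (all sites 19.9%) and 22 of 61 with the trend over mean reads removed (19.2%), while the 3 lower became 6 with that scaling (23.2%) and 6 of 55 with the minimum on Untreated and DMSO (19.1%). With no minimum, of 176 sites, the counts higher and lower were 80 and 32 with latrunculin A, 89 and 25 with MCSF, 35 and 36 with IL-4 without vehicle, and 29 and 54 with vehicle. All sites then gave 27.5% and 28.0%, 27.5% and 27.1%, 24.6% and 22.4%, and 24.9% and 24.1%. At a minimum of 50 reads they were 11 and 0 of 18, 14 and 0, 1 and 0, and 0 and 1, against 44.7% and 6.04%, 46.0% and 5.65%, 21.9% and 5.40%, and 13.6% and 10.1% of all sites. At 2-fold they were 16 and 1 of 61, 26 and 1, 4 and 2, and 1 and 4, against 11.5% and 5.77%, 11.8% and 5.08%, 9.32% and 2.39%, and 7.21% and 3.73%. With 5 reads added, 4 sites were lower with IL-4 without vehicle (6.72% of all sites) and 2 were higher with vehicle (14.1%). More sites are tested with no minimum and fewer at the higher minimum, and fewer can pass the stricter fold. The cause of the other shifts was not tested. Of 148 ratios at the sites that met the naming rule, 13 changed sign under 1 alternative or more. Of these, 12 were short of 1.5-fold as first given, and the other was the strongest Actg1 site, at -0.0060 with latrunculin A once the trend was removed. Depth limits the weaker sites, whose intervals often span 1.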
